A study of Mus musculus with 6 samples.

Results

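This section concerns 40 genes of the germline, of the piRNA pathway and of meiosis in immortalized cardiosphere-derived cells of the mouse. They were taken by gene symbol from a table of 54532 genes, and all 40 were found there. The cells were grown from C57BL/6 heart ventricle, which the study describes as adult epicardium, and were kept dividing by a lentiviral human telomerase transgene under puromycin selection. The control group held 3 libraries of these cells at passage 30. The induced group held 3 libraries of cells at the same passage that received 10 µM 5-azacytidine for 3 days and then 4 weeks of culture in IMDM with 2% serum. The methods of the study give a shorter culture in another medium, and do not say how the sequenced control cells were kept, so drug, serum and time in culture cannot be told apart. The transgene and its selection were shared by both groups, and the labels do not say whether the samples were separate cultures, so p-values measure the spread between these libraries.

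Germline genes encode the proteins by which sperm and eggs are made. Many of them have CpG-rich promoters that carry DNA methylation in body cells, and they are also bound there by a repressor complex that holds E2F6, MGA and MAX. 5-azacytidine is built into nucleic acid and traps the DNA methyltransferases, so that methylation is lost as cells divide. piRNAs are small RNAs that guide PIWI proteins to transposon transcripts in germ cells, and the synaptonemal complex joins paired chromosomes during meiosis.

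The 6 libraries held 19041133 to 19823369 reads, and a count of 0 leaves room for at most 0.151 to 0.158 CPM (reads scaled to the size of the library), which is what 3 reads come to. Counting limits cover counting error only. Of the markers of cardiosphere-derived cells, Eng, Thy1, Ly6a, Tbx18 and Col3a1 were all expressed well above this limit, with 1876 control reads for the lowest, Ly6a. The endothelial and blood markers Pecam1, Ptprc and Kdr were summed with Kit, which the study names as stem cell-associated. The sums were 0.306 to 0.811 CPM in control libraries and 0.421 to 0.850 CPM in induced ones. Kit held 18 of the 32 control reads and 24 of the 35 induced reads.

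The 40 genes split into a small set that appeared in induced cells, a small set that control cells already expressed, and a majority with few or no reads in either group. Sohlh2, Tuba3b, Tex19.1, Tuba3a, Mov10l1, Slc25a31 and Sycp3 had 0 reads in all control libraries and at least 10 reads over the 3 induced libraries. Syce2, Brdt and Ddx4 fell, and they held 86.3% of the reads of all 40 genes in control cells. Dazl reached 4 reads in induced cells, and Piwil1, Sycp1, Spo11, Sohlh1, Mei1, D1Pas1, Dppa3 and Zfp42 had 0 reads in all 6 libraries.

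The promoters of 5 members are shown with their CpG dinucleotides, on which DNA methylation acts. The 5 are the called members with the most reads in induced cells for which a window was found. Each sequence runs 5′ to 3′ on the strand of the gene, from 250 bases before to 50 bases after the RefSeq start site in GRCm38.p6, with each CpG in capitals. Sohlh2 (chr3:55181794-55182093, plus strand), Tuba3b (chr6:145615713-145616012, plus strand) and Tex19.1 (chr11:121145893-121146192, plus strand) appeared in induced cells. Syce2 (chr8:84871861-84872160, plus strand) and Brdt (chr5:107330944-107331243, plus strand) were present in control cells.
Syce2: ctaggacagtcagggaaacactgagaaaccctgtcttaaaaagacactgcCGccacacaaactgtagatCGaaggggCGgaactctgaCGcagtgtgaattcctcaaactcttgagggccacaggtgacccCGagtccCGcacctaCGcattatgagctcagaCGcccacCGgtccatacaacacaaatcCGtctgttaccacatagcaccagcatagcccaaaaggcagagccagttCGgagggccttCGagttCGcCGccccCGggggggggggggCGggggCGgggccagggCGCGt
Sohlh2: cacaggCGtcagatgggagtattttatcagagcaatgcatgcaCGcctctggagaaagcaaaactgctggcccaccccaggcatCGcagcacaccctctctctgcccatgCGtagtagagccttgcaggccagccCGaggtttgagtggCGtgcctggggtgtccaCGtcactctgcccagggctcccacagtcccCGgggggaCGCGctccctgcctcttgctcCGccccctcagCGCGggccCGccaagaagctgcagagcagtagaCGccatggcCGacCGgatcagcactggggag
Tuba3b: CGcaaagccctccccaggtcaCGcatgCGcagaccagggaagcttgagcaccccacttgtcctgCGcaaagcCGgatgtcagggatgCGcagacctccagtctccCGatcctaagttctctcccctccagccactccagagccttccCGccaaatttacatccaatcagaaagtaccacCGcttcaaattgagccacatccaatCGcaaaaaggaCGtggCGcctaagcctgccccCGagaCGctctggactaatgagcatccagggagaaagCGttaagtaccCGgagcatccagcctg
Brdt: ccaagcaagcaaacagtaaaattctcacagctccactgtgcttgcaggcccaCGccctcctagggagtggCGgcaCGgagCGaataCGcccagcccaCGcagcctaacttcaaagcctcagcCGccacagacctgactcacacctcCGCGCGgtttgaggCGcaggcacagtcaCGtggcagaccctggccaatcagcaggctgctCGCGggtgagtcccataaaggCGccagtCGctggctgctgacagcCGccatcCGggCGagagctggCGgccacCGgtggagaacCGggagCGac
Tex19.1: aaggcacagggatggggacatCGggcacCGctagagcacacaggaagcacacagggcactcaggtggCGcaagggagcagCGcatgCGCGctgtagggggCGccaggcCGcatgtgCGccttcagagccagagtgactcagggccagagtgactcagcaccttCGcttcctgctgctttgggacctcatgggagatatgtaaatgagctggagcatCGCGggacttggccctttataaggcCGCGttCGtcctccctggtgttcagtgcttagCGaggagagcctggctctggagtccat
CpG dinucleotides numbered 17 in the Sohlh2 window and 16 in each of the Tuba3b and Tex19.1 windows. The windows of Syce2 and Brdt, which fell, held 19 and 23, and that of Ddx4, which also fell and is not printed, held 38. The median over 20480 genes with such a window was 11. The RefSeq start site of Tuba3b lies 206 bases from the gene start in the deposited table.

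Levels in control and induced libraries are given first as reads, because most values are small. The first question was which members were switched on. In bulk RNA, expression in fewer cells and less RNA per cell cannot be told apart. Of the 40 members, 15 had 0 reads in control and at least 1 read in induced cells, 17 had reads in both groups, 8 had 0 reads throughout, and 0 had reads in control cells alone. With 8 of 40 (20%) at 0 reads, the members were close to all protein-coding genes, of which 24.8% had 0 reads. A pattern of 0 reads in control and at least 1 read in every induced library was found for 10 of the 32 members with any read (31.2%), against 1.49% of all genes with a read. The opposite pattern was found for 0 members and 0.549% of all genes with a read. Of the 10 members that reached 10 reads in each of the induced libraries, 5 had 0 control reads, against 0.378% of all genes at that level. The groups did not overlap, with induced libraries higher, for 15 of 32 members, against 23% of all genes with a read. They did not overlap with control libraries higher for 2 of 32 members, against 20.9%. No member lies on the X chromosome. The members were chosen with earlier results of these data known, so these shares describe them and do not test for an excess. The shares over all genes also count genes that control cells express broadly, and no set of like genes was compared.

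**Figure D1:**
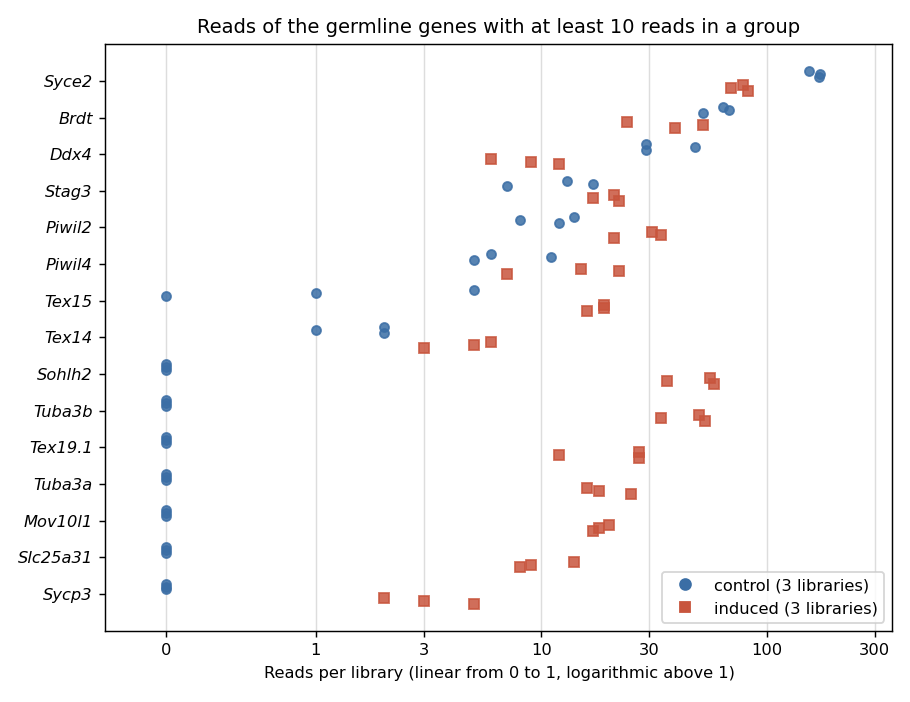
Reads per library (x axis, linear from 0 to 1 and logarithmic above) of the 15 genes that reached 10 reads in a group, with circles for the 3 control and squares for the 3 induced libraries. Sohlh2, Tuba3b, Tex19.1, Tuba3a, Mov10l1, Slc25a31 and Sycp3 have all control circles at 0, while Syce2 and Ddx4 have every induced square below every control circle.

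Sohlh2, a basic helix-loop-helix transcription factor of early germ cells, was the most abundant of the genes that appeared. It lies on chromosome 3, from 55182028 to 55209957 (plus strand). Its reads were 56, 36 and 58 in induced libraries and 0 in each control library. All induced libraries were therefore above all control libraries, at 2.64 ± 0.644 CPM (SD, n = 3), at least 52.1-fold higher than the 3 reads that 0 reads over the control group allows (edgeR adjusted p 3.005e-08). This bound and those below take the induced reads as counted and leave out their counting error. Sohlh1, the partner with which Sohlh2 acts in spermatogonia and young oocytes, had 0 reads in all 6 libraries.

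Tuba3a and Tuba3b encode near-identical alpha-tubulins found mainly in testis. Tuba3b had 50, 34 and 53 reads in induced libraries and 0 in each control library, at least 47.6-fold higher (edgeR adjusted p 3.92e-08). Tuba3a had 16, 18 and 25 reads against 0 in each control library, at least 20.5-fold higher (edgeR adjusted p 2.63e-06). Both lie on chromosome 6, with lowest coordinates 125278274 (Tuba3a, minus strand) and 145615757 (Tuba3b, plus strand). Of the 100-base windows in their transcripts, 12.3% of those of Tuba3a occur in Tuba3b, and 11.8% of those of Tuba3b occur in Tuba3a or in Gm5366, so how the reads divide between the genes is uncertain. Both genes were at 0 in every control library, so a split of shared reads does not set the direction.

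The piRNA pathway and germ granule group held 14 members, of which 5 were tested. Tex19.1, a mammalian protein that restrains retrotransposons in germ cells and placenta, had 27, 12 and 27 reads in induced libraries and 0 in each control library, at least 22.9-fold higher (edgeR adjusted p 4.37e-06). Its neighbour and relative Tex19.2, on the same chromosome 27466 bases away, had 0 control and 3 induced reads. Mov10l1, the RNA helicase that feeds precursor transcripts into piRNA production, had 20, 18 and 17 reads in induced libraries against 0 in each control library, at least 19.11-fold higher (edgeR adjusted p 2.59e-06). Its induced libraries were the most even of the genes that appeared, with 0.967 ± 0.0877 CPM (SD, n = 3).

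The PIWI proteins, which carry piRNAs, differed among themselves in level. Piwil2 had 12, 8 and 14 reads in control and 31, 34 and 21 in induced libraries. The groups did not overlap and the log2 fold change was 1.39 (SE 0.34, edgeR adjusted p 0.00167). Piwil4, which acts in the nucleus of fetal male germ cells, had 5, 11 and 6 reads in control and 15, 22 and 7 in induced libraries. These ranges overlap through the third induced library. Its log2 fold change was 1.05 with a 95% interval of 0.04 to 2.06, and it did not pass the threshold (edgeR adjusted p 0.0645). Without control replicate 2 or induced replicate 3 its adjusted p was 0.0411 or 0.0167. Piwil1, the PIWI protein of meiotic and later male germ cells, had 0 reads in all 6 libraries, which allows at most 0.158 CPM in any of them.

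Ddx4, the Vasa helicase used as a marker of germ cells, went the other way. Its reads were 29, 48 and 29 in control and 6, 9 and 12 in induced libraries. Every induced library was below every control library, with a log2 fold change of -1.90 (SE 0.36, edgeR adjusted p 0.000162). Exons of Ddx4 (chromosome 13, 112598333 to 112652475) overlap no other gene in GENCODE M21, and it shared 0% of its 100-base windows with other transcripts.

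The other piRNA genes stayed near the limit of detection. Fkbp6, a co-chaperone of piRNA loading, had 0 reads in control and 3, 1 and 4 in induced libraries. Mael had 0 reads in control and 1, 2 and 1 in induced libraries. Tdrd12 had 2 control and 6 induced reads, a ratio of 3.13 (95% exact binomial interval 0.559 to 31.7). Tdrd9 had 2 and 3, Tdrd1 had 2 and 1, Asz1 had 0 and 2, and Stk31 had 0 and 1 reads in control and induced cells. None of these genes passed the filter on low counts. The helicase gene D1Pas1 had 0 reads.

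Of the 10 genes of the synaptonemal complex and chromosome axis, 2 were tested. Syce2, a protein of the central element, was the most abundant member in both groups. Its reads were 170, 171 and 154 in control and 78, 69 and 82 in induced libraries. The groups did not overlap, and its log2 fold change was -1.05 (SE 0.14, edgeR adjusted p 2.59e-06). Per gene length its level was 4.201 FPKM in control cells and 2.04 FPKM after induction. The gene lies on chromosome 8 from 84872111 and its exons overlap no other gene.

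Stag3, a cohesin subunit of meiotic chromosomes, had 7, 17 and 13 reads in control and 21, 17 and 22 in induced libraries. On the CPM scale its groups did not overlap, but the margin was small. Its log2 fold change was 0.75 with a 95% interval of -0.02 to 1.52, and it did not pass the threshold (edgeR adjusted p 0.0809). Without control replicate 2 its adjusted p was 0.0465.

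Sycp3, which builds the lateral axis and is a standard marker of meiosis, had 2, 3 and 5 reads in induced libraries and 0 in each control library, at least 3.47-fold higher. Its count is uncertain, because 52.2% of its exon bases overlap Chpt1 on the opposite strand and the strand setting of the counting is not given in the sources used here. Syce1 had 3, 0 and 5 reads in induced and 0 in control libraries. The remaining axis genes had at most 5 reads in either group. Smc1b had 1 control and 5 induced reads, all 5 in the third induced library, and the same library held all 5 induced reads of Hormad2, against 4 in control cells. Sycp2 had 5 and 4, Rec8 had 1 and 2, and Hormad1 had 0 and 1 reads in control and induced cells. Sycp1, the transverse filament that spans the complex, had 0 reads.

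**Figure D2:**
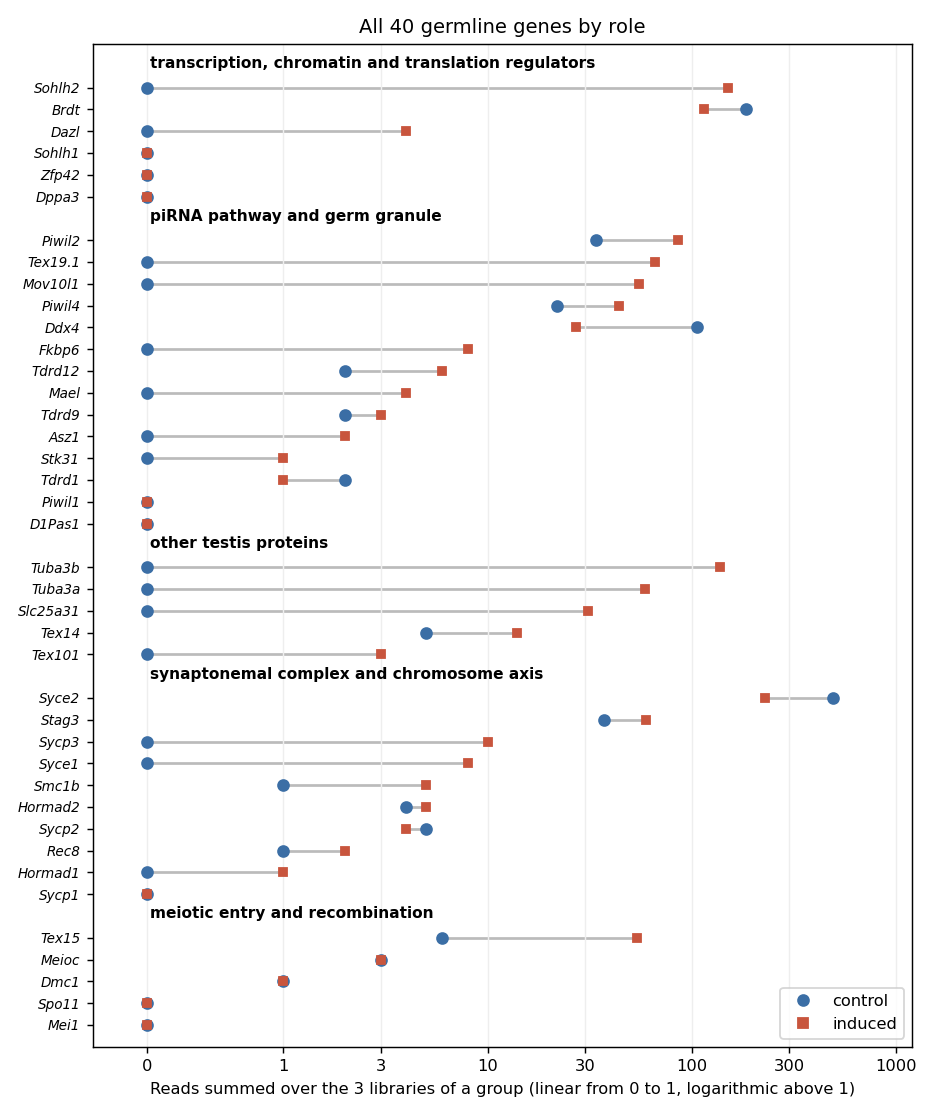
Reads summed over the 3 libraries of each group (x axis, linear from 0 to 1 and logarithmic above) for all 40 genes, grouped by role, with a circle for control and a square for induced cells joined by a line. Squares reach 150 reads for Sohlh2 with its circle at 0, lie to the left of circles for Syce2, Brdt, Ddx4, Sycp2 and Tdrd1, and 8 genes have both symbols at 0.

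Among genes of meiotic entry and recombination, Tex15 was the member with a test. Tex15 is required for meiotic recombination and for piRNA-directed methylation of transposons. It had 0, 1 and 5 reads in control and 19, 19 and 16 in induced libraries. All induced libraries were above all control libraries, with a log2 fold change of 3.15 (SE 0.59, edgeR adjusted p 0.000144). Of the 6 control reads, 5 came from the third library. Without control replicate 3 the log2 fold change was 4.91, and without control replicate 1 it was 2.60. Meioc, which keeps germ cells in the meiotic programme, had 3 reads in each group, and the recombinase Dmc1 had 1 in each. Spo11, which cuts DNA to start recombination, and Mei1 had 0 reads.

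Brdt, a bromodomain protein that reads histone acetylation in testis, was the least stable of the 3 falls. It had 52, 68 and 64 reads in control and 24, 52 and 39 in induced libraries. The groups overlapped on the CPM scale through the second induced library and the first control library. Its log2 fold change was -0.62 (SE 0.25, edgeR adjusted p 0.0384). This call was lost with DESeq2 (adjusted p 0.0598). It was also lost when control replicate 2, control replicate 3, induced replicate 1 or induced replicate 3 was left out (edgeR adjusted p 0.0723 to 0.184). The RNA-binding protein Dazl, which controls translation in germ cells, had 3, 0 and 1 reads in induced and 0 in control libraries. Dppa3 and Zfp42, which are shared by germ cells and pluripotent cells, had 0 reads.

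Of the remaining testis proteins, Slc25a31, the ADP/ATP carrier that male germ cells use in place of an X-linked one, had 14, 9 and 8 reads in induced libraries and 0 in each control library. It was at least 10.8-fold higher, but it did not pass the filter on low counts. Without a filter its edgeR adjusted p was 1.52e-06. This value is not on the scale of the p-values with the filter. For Mov10l1 the edgeR adjusted p was 2.586e-06 with the filter and 1.469e-11 without it. Leaving out the filter also lowered the adjusted p of the other called members, and raised it for Stag3 and Piwil4. Tex14, which keeps bridges between germ cells open, had 2, 1 and 2 reads in control and 6, 5 and 3 in induced libraries, a ratio of 2.92 (95% exact binomial interval 0.993 to 10.35). Tex101, a surface protein of germ cells, had 1 read in each induced library and 0 in control libraries.

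Counted across all genes tested, 64.8% of 14246 genes were past an edgeR adjusted p of 0.05, made up of 32.6% that were higher and 32.2% that were lower in induced cells. Only 12 of the 40 members passed the filter. Of these, 7 were higher, 3 lower and 2 not past the threshold. The 5 with 0 control reads, and Tex15 with at most 5 reads in a control library, passed the filter through their induced libraries and so had to be higher, and these counts describe the tested genes and not the 40. The median log2 fold change was 0.75 over the 7 tested members with control reads and -0.01 over all genes tested. The 7 include Tex15, so this median does not measure a shift of the members. Apart from Tex15, they were -1.90 for Ddx4, -1.05 for Syce2, -0.62 for Brdt, 0.75 for Stag3, 1.05 for Piwil4 and 1.39 for Piwil2. Piwil2, Stag3 and Piwil4 had control libraries under 10 reads and passed the filter only with induced libraries. Ddx4 had induced libraries under 10 reads and passed only with control libraries. The values of these genes are therefore not free of the filter. Without a filter, 32 members were tested and 11 were higher and 3 lower, against 19.9% of all genes higher and 18.1% lower. The added ones were Slc25a31, Sycp3, Fkbp6 and Syce1, all with 0 control reads. Of the 32, 15 had 0 control reads and could not be called lower, so these counts do not measure a shift either.

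**Figure D3:**
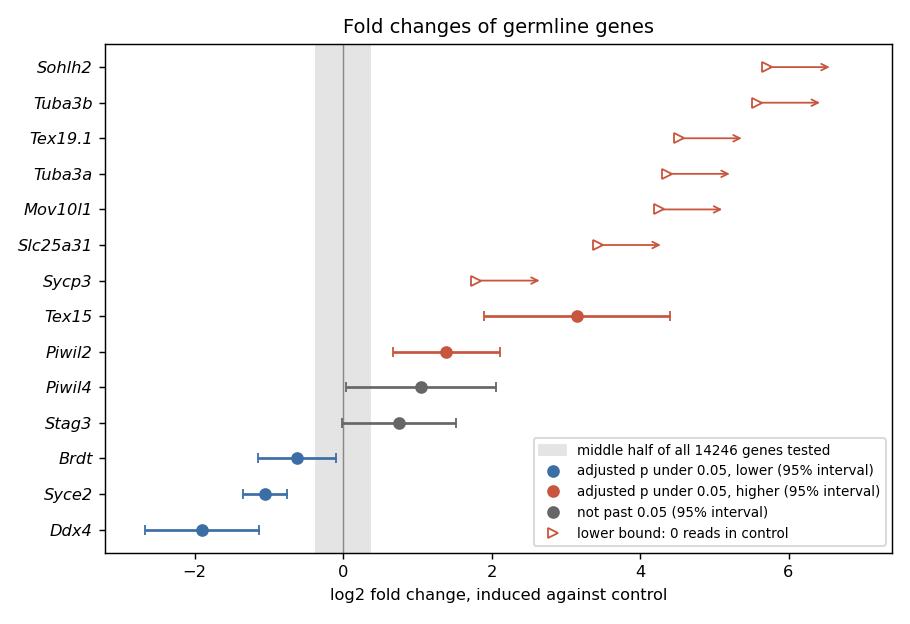
log2 fold changes (x axis, induced against control) with 95% intervals for the 7 tested genes with control reads, and lower bounds (open triangles with arrows) for the 7 genes with 0 control reads and at least 10 induced reads. The grey band runs from the lower to the upper quartile of all genes tested, -0.37 to 0.36. The bounds of Sohlh2, Tuba3b, Tex19.1, Tuba3a, Mov10l1, Slc25a31 and Sycp3 take the induced reads as counted and lie to the right of it.

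Per gene length, the levels of the genes that appeared stayed low. In induced cells Tuba3b reached 1.36 FPKM (mean of 3 libraries), Sohlh2 1.11, Tuba3a 0.685, Tex19.1 0.619, Slc25a31 0.256, Mov10l1 0.231 and Sycp3 0.139 FPKM. On the same scale Brdt fell from 0.601 to 0.394 FPKM and Ddx4 from 0.588 to 0.157 FPKM. Summed over all 40 genes, the control libraries held 286, 335 and 289 reads and the induced libraries 402, 370 and 426. These ranges did not overlap. Syce2, Brdt and Ddx4 together held 785 reads in control and 371 in induced cells, and the members with 0 control reads held 539 in induced cells.

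Of the genes on either side of the 7 members that appeared, Gnptab, Hspa4l and Rassf8 were higher, Dclk1 was lower, and the others did not pass the threshold or had too few reads for a test. Around Sohlh2, Ccdc169 lies 9093 bases to the left with 4 control and 1 induced reads, and Dclk1 fell (log2 fold change -1.51, edgeR adjusted p 7.64e-14). Vamp1 and Ltbr, on either side of Tuba3a, were not past the threshold (edgeR adjusted p 0.954 and 0.478). Next to Slc25a31, Intu had an edgeR adjusted p of 0.598 and Hspa4l was higher (log2 fold change 0.32, edgeR adjusted p 0.0014). Mlc1 and Panx2, which flank Mov10l1, had 0 and 11 reads in control and 1 and 10 in induced cells. Rassf8, to the right of Tuba3b at 125269 bases, was higher (log2 fold change 0.93, edgeR adjusted p 1.28e-10), while Lmntd1 at 1438 bases had 1 and 3 reads. Gnptab, beside Sycp3, had a log2 fold change of 0.14 (edgeR adjusted p 0.0338), and Mybpc1 on its other side had 0 reads. Uts2r, to the right of Tex19.1, also had 0 reads. These genes were chosen by position after the values of the members were seen.

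Promoter windows were found for 36 of the 40 members, of which 32 have their start site within 300 bases of the start of the gene in the deposited table. No window was found for Dppa3, Piwil2, Spo11 and Tex15. The ratio of observed to expected CpG (CpG count times length, divided by the product of C and G counts) had a median of 0.693 over the members and of 0.510 over all genes. By expression, the median was 0.666 for the 7 genes that appeared, 0.738 for the 5 with at least 10 reads in control cells, 0.714 for 18 other members and 0.530 for the 6 at 0 reads. The ranges of these sets overlap, at 0.472 to 0.826, 0.543 to 1.06, 0.341 to 1.08 and 0.441 to 0.874. Of the 6 windows of genes at 0 reads, those of Piwil1 and Mei1 have their start sites 33722 and 12480 bases from the start of the gene in the table. DNA methylation was not measured in these samples.

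**Figure D4:**
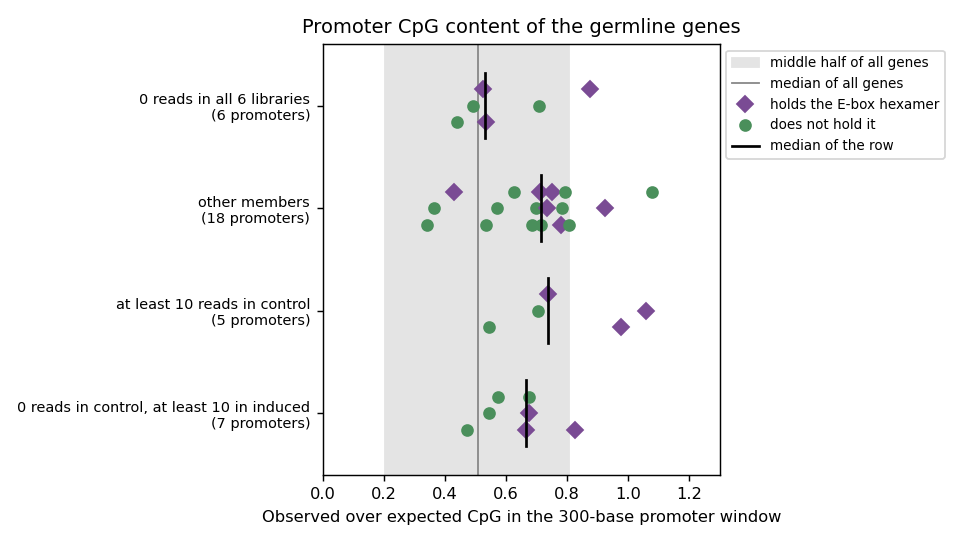
Observed over expected CpG (x axis) in the 300-base promoter window of 36 germline genes, in rows by their reads, with diamonds for windows that hold the E-box CACGTG and black bars for row medians. The grey band runs from the lower to the upper quartile of all genes, 0.202 to 0.808, and points of all 4 rows lie inside it.

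Both hexamers that the E2F6, MGA and MAX complex is known to read were searched on both strands of the window. CACGTG, the E-box, was in 15 of 36 member promoters (41.7%) and in 7.68% of 20480 promoters of all genes. GCGGGA, the core of the E2F6 site, was in 17 of 36 (47.2%) and in 23.9% of all promoters. The hexamers are different words, and neither contains the other. One or the other was in 25 of 36 members (69.4%) and in 29.1% of all promoters. Both hexamers contain a CpG, and member windows held a median of 18 CpG against 11 over all genes. The promoters of all genes were not matched for CpG content, whose part in these shares was not tested. Either hexamer was in 6 of the 7 promoters of genes that appeared. Of the genes with at least 10 control reads, 4 of 5 promoters held one. The counts were 11 of 18 for the other members and 4 of 6 for genes at 0 reads. Of the printed promoters, that of Brdt holds CACGTG from position -78, counted from the start site. That of Tex19.1 holds GCGGGA from position -33. Those of Syce2 and Tuba3b hold it on the opposite strand, printed as TCCCGC, from positions -115 and -106. That of Sohlh2 holds neither. A match is a description of the letters and not a measured binding site.

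Other genes of these pathways were read in the same way. From 131 further genes in 7 lists, 130 were in the table, 42 had 0 reads in all 6 libraries and 25 were tested. Of these 25, 13 were higher, 4 lower and 8 not past the threshold, so that 17 of 25 were called against 64.8% of all genes tested. Differences between the lists were not tested. In the wider piRNA list, 7 of 18 genes were tested and 4 were higher and 1 lower. In the wider meiosis list, 8 of 33 were tested and 2 were higher and 3 lower. Of 22 X-linked testis genes 4 were tested, and all 4 were higher. None of these 4 reached 10 reads in a control library, so they passed the filter through their induced libraries and their direction was largely fixed by it. The same holds for Gpat2 and Morc1 of the piRNA list.

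Gpat2, a mitochondrial acyltransferase of the piRNA pathway, had 2 reads in control and 32, 18 and 30 in induced libraries, a pooled ratio of 41.7 (95% exact binomial interval 11.2 to 350.2, edgeR adjusted p 8.43e-07). Morc1, which silences transposons in male germ cells, had 1 read in control and 14, 13 and 19 in induced libraries, a pooled ratio of 47.95 (interval 8.19 to 1935, edgeR adjusted p 1.08e-05). Exd1, a protein of the piRNA machinery, had 20, 13 and 17 reads in control and 60, 60 and 51 in induced libraries (log2 fold change 1.83, SE 0.26, edgeR adjusted p 5.58e-06). Gtsf1, a PIWI partner that was named after its values were seen, had 10, 4 and 15 reads in induced and 0 in control libraries, at least 10.1-fold higher and not tested. In these 4 genes every induced library was above every control library. Tdrkh and Ddx25, also named after their values were seen, went the other way. Tdrkh, a Tudor protein that binds PIWI proteins, had 223, 266 and 288 reads in control and 169, 151 and 141 in induced libraries (log2 fold change -0.69, SE 0.12, edgeR adjusted p 6.03e-05). The helicase gene Ddx25 had 12, 17 and 9 against 6, 5 and 6 reads and was not tested, and its groups did not overlap.

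In the wider meiosis list, Mnd1 and Psmc3ip, which form one complex that helps Dmc1, went in opposite directions. Mnd1 had 27, 37 and 45 reads in control and 145, 105 and 183 in induced libraries (log2 fold change 2.05, SE 0.22, edgeR adjusted p 2.12e-07). Psmc3ip had 110, 136 and 113 in control and 70, 52 and 75 in induced libraries (log2 fold change -0.81, SE 0.17, edgeR adjusted p 0.000504), and was named after its values were seen. Trip13, an ATPase that removes HORMA proteins from chromosomes in meiosis and also serves the mitotic checkpoint, had 389, 377 and 398 reads in control and 91, 87 and 101 in induced libraries (log2 fold change -1.999, SE 0.10, edgeR adjusted p 7.66e-12). The groups did not overlap in any of the 3.

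Of the X-linked testis genes, the homeobox gene Rhox5 had 0, 1 and 0 reads in control and 125, 73 and 98 in induced libraries, a pooled ratio of 308.5 (interval 54.95 to 12230, edgeR adjusted p 2.91e-10). Nxf3, a relative of the RNA export factors, had 2, 5 and 7 reads in control and 33, 52 and 53 in induced libraries (log2 fold change 3.33, SE 0.40, edgeR adjusted p 6.65e-07). Xlr3c had 0 control reads and 21, 33 and 15 induced reads (edgeR adjusted p 2.97e-06), and Xlr3a had 0, 1 and 1 against 16, 15 and 14 (edgeR adjusted p 1.55e-05). The Xlr genes are a family of close copies and their counts are uncertain. Rhox5 alone held 5.21 ± 1.40 CPM (SD, n = 3) in induced cells, against 2.64 ± 0.644 CPM for Sohlh2.

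Genes of finished germ cells had few reads in either group. Of 20 spermatid genes, 10 had 0 reads in all libraries and 17 had at most 5, with summed levels of 0.760 to 0.801 CPM in control and 0.631 to 1.22 CPM in induced libraries, most of it Gapdhs. Of 14 oocyte genes, 8 had 0 reads and 12 had at most 5, with summed levels of 0.355 to 1.00 CPM in control and 0.421 to 0.839 CPM in induced libraries. The ranges of the groups overlap in both lists. The sperm protamine genes Prm1 and Prm2 and the egg coat genes Zp1 and Zp2 had at most 3 reads in a group.

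**Figure D5:**
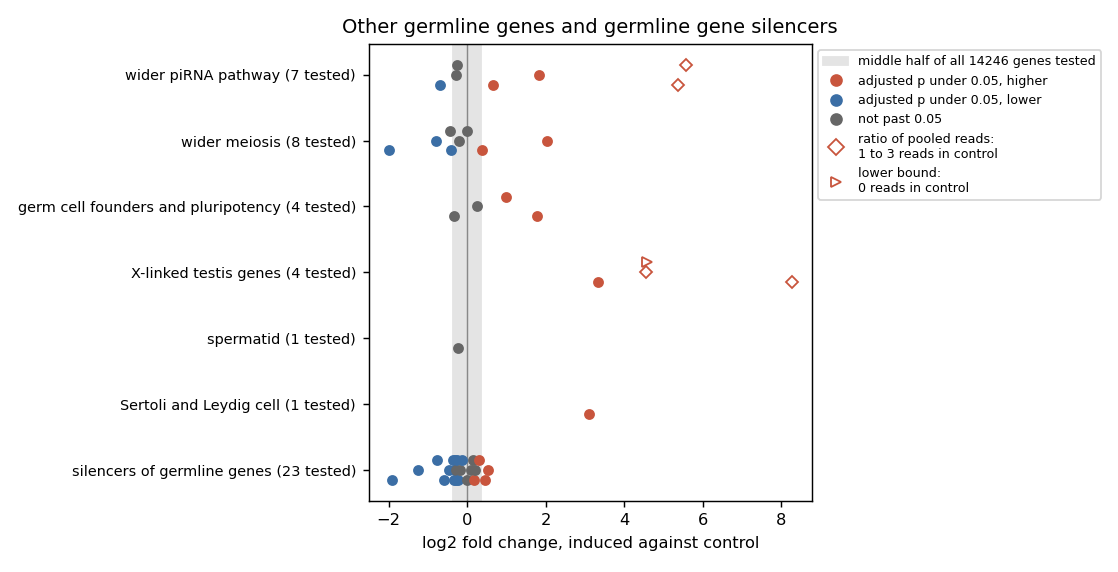
log2 fold changes (x axis, induced against control) of the tested genes of 6 further germline lists and of the silencers of germline genes, coloured by call, with open symbols where control cells had at most 3 reads. The oocyte list had 0 tested genes, the 4 X-linked genes all lie to the right of the grey band (quartiles of all genes tested, -0.37 to 0.36), and Uhrf1 and Dnmt1 lie farthest to the left among the silencers.

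The factors that silence germline genes in body cells were read in the same libraries. All 23 were tested, and 13 were lower, 4 higher and 6 not past the threshold. Of all genes tested, 32.2% were lower and 32.6% higher. The median log2 fold change was -0.27 for the silencers and -0.01 for all genes tested. The shares over all genes were not matched for read count. Calls among the silencers included small changes, such as Wdr5 (log2 fold change -0.14, edgeR adjusted p 0.0416). Among the 23, only Dnmt1 and Uhrf1 changed by at least 2-fold. Dnmt1, which copies methylation to new DNA, had 2535, 2693 and 2574 reads in control and 1088, 1011 and 1031 in induced libraries (log2 fold change -1.26, SE 0.06, edgeR adjusted p 6.34e-13). Uhrf1, which brings Dnmt1 to replicating DNA, had 1684, 1641 and 1705 against 415, 412 and 448 (log2 fold change -1.92, SE 0.06, edgeR adjusted p 2.42e-15). The groups did not overlap for either gene.

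The methyltransferases that set new marks differed from these. Dnmt3a rose from 69.5 ± 1.202 CPM in control to 94.4 ± 2.59 CPM in induced libraries (SD, n = 3, log2 fold change 0.44, edgeR adjusted p 5.56e-07). Dnmt3b had 37, 43 and 45 reads in control and 23, 41 and 35 in induced libraries, with overlapping groups (edgeR adjusted p 0.354). Of the complex that binds the E-box and E2F6 sites, E2f6 fell from 24.9 ± 2.71 CPM in control to 20.1 ± 1.05 CPM in induced libraries (SD, n = 3, log2 fold change -0.31, edgeR adjusted p 0.00484) and Max rose (log2 fold change 0.18, edgeR adjusted p 0.0141) with overlapping groups. Mga, the scaffold of the complex, was at 66.7 ± 0.554 CPM in control libraries against 66.1 ± 6.70 CPM after induction (SD, n = 3, edgeR adjusted p 0.853). L3mbtl2 and Pcgf6 had log2 fold changes of -0.18 and 0.20 and were not past the threshold (edgeR adjusted p 0.0596 and 0.0755). The part of these factors in the values of the germline genes was not tested.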

How the data were processed

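RNA from 3 control and 3 induced samples of immortalized mouse cardiosphere-derived cells was sequenced. The authors deposited one table with whole-number read counts per gene and library, not normalized, which were used as deposited. The authors also deposited FPKM values, which are counts scaled by gene length and by a single depth for each library, and were used to compare levels between genes. The submitters' processing notes name HISAT2 2.0.5, featureCounts 1.5.0-p3, DESeq2 1.16.1 and mm10. The strand setting is not given in the sources used here. The 5 columns of the authors' comparison (group means, log2 fold change, p-values) and the 2 Gene Ontology tables were not used.

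Tests used edgeR 4.0.16 under R 4.3.3, with filterByExpr (minimum count 10, minimum total 15), TMM scaling, and the two-sided quasi-likelihood test with Benjamini-Hochberg adjustment over 14246 genes at 0.05. CPM is TMM-scaled. For 0 control reads a fold is a lower bound against 3 reads summed over the group. It takes the induced reads as counted, so their counting error is left out. Ratios of pooled reads have a 95% exact binomial interval. Other settings were a DESeq2 1.42.0 Wald test, scaling by median ratios or by totals alone, omitting the filter, raising it (mean count of at least 10, with 1 CPM or more in 3 libraries), blocking on replicate number, a threshold of 0.01, and dropping each library in turn. The test was tried on simulated counts for 14034 genes, where 92.9% of genes changed by 2-fold were called. The changed genes were drawn at random from all genes tested, so this share need not hold for genes with few reads. No libraries were merged for the tests, since those of a group differed beyond sampling noise (chi-square over its degrees of freedom 2.56 to 8.91). Ratios of pooled reads sum the 3 libraries of a group, so their intervals cover counting error only and leave out that spread.

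Overlaps were taken from GENCODE M21, where all 40 members have the coordinates of the table, and promoter windows from RefSeq GRCm38.p6, using the window nearest the start of each gene. Members with at least 10 reads in a group are given per library. From the further lists, up to 5 genes past the threshold with at least a 2-fold change are named, and fixed silencers. One further gene, Speedya, was not matched. The members and lists were chosen with earlier results of these data known.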

Additional observations from a re-analysis of the deposited data

How the results depend on the processing

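Of 150 values of the 12 tested members under 13 alternatives, 0 reversed, 6 lost the call, all for Brdt, and 3 gained one, for Stag3 and Piwil4. With no filter 11 members were higher and 26 genes of the further lists were called, against 7 and 17. With the stricter filter 6 members were called, 3 of them higher, because 6 members were tested. Dropping single libraries gave 9 to 11 called members, 7 to 9 higher and 2 or 3 lower, and 8514 to 9348 genes in all. In the 250 bases before the start site alone, CACGTG was in 6.43% and GCGGGA in 20.1% of all promoters, and in 41.7% and 38.9% of the members. Apart from the smaller number of genes tested under the stricter filter, the cause was not tested. Replicate numbers did not pair the libraries (correlations of deviations -0.002, -0.015 and 0.027), and with the replicate block 10 members were called (7 higher, 3 lower), 9063 genes in all and 17 genes of the further lists. Depth limits the 28 members that did not pass the filter.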

Other observations

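Of 16 genes that mark founding germ cells and pluripotent cells, 4 were tested and 2 were higher. Zbtb16, a transcription factor of spermatogonial stem cells that other tissues also use, had 8, 14 and 13 reads in control and 34, 55 and 28 in induced libraries (log2 fold change 1.79, SE 0.35, edgeR adjusted p 0.000200). The groups did not overlap. Gfra1, a receptor for glial growth factors that also marks these stem cells, rose from 7.94 ± 0.833 CPM in control to 15.7 ± 0.266 CPM in induced libraries (SD, n = 3, log2 fold change 0.98, edgeR adjusted p 1.73e-07). Dppa2 had 0 reads in control and 7, 7 and 8 in induced libraries, at least 7.64-fold higher and not tested. Nanog, a transcription factor of pluripotent cells, had 5, 12 and 10 reads in control and 0, 3 and 0 in induced libraries. Its pooled ratio was 0.116 (95% exact binomial interval 0.0225 to 0.376, counting error only), and it was not tested. Utf1 had 7 control and 0 induced reads. Gfra1, Dppa2, Nanog and Utf1 were named after their values were seen. Zbtb16, with 8 reads in a control library, passed the filter only with its induced libraries.

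Of 7 genes of Sertoli and Leydig cells, the somatic cells of the testis, Star was tested. Star, which carries cholesterol into mitochondria for steroid synthesis, had 37, 27 and 34 reads in control and 228, 308 and 276 in induced libraries (log2 fold change 3.10, SE 0.16, edgeR adjusted p 8.68e-12). Cyp11a1, the enzyme of the next step, had 3 control and 21 induced reads and was named after its values were seen. Its pooled ratio was 7.30 (95% exact binomial interval 2.18 to 38.2, counting error only), and it was not tested. The remaining 5 genes of the list were not tested, and their groups overlapped. Amh had 12 control and 18 induced reads, and Insl3 had 12 and 11. Cyp17a1 had 1 and 3, Fshr had 1 and 0, and Dmrt1 had 0 in both groups.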
